A study of Homo sapiens with 4 samples.

Results

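ABHD4, GPR146, SDK1, SYNPO and the 5 Yippee-like genes YPEL1, YPEL2, YPEL3, YPEL4 and YPEL5 were described from a FOXK2 chromatin immunoprecipitation and sequencing (ChIP-seq) experiment in OVCAR5, an established high-grade serous ovarian cancer cell line derived from ascites. A peak was taken for a gene when the deposited annotation named that gene as having the nearest transcription start site (TSS). This gave 16 of the 12471 peaks of replicate 1 and 24 of the 27281 peaks of replicate 2, over 9 of the 14631 genes that had a peak in either list. The genes were picked with their peaks in these same lists known, several for their high peak scores, so the presence and height of those peaks are described here and not tested.

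Both FOXK2 libraries came from OVCAR5 cells of passage 4-6 for which no treatment or genetic change was labelled, crosslinked with 1% paraformaldehyde, and the design had a single condition, so no comparison between conditions was possible. The input libraries and the RNA of FOXK2-depleted cells were not analysed here, the labelled cell type could not be checked against expressed markers, and whether any of the 9 genes responded to FOXK2 could not be read from the peaks. A peak score from the deposited lists is the tag count of a peak scaled to its own library. Each list held scores in whole steps, of 0.189 in replicate 1 and 0.149 in replicate 2. Read as 1 tag per step, as the peak caller's default scaling would give, the smallest peaks held 16 and 21 tags. The median peak score was 5.85 in replicate 1 and 7.29 in replicate 2. Heights were therefore given within a list, by rank and by percentile, which is the percent of peaks of that list with a lower score. Intervals on scores are exact Poisson intervals on the tags at a level of 95%, and they cover counting error only, since reads without molecular identifiers are not independent molecules.

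FOXK2 is a forkhead transcription factor. Its winged-helix domain binds a short A/T-rich element, of which TGTTTAC is the preferred form, and in various cells it recruits chromatin-modifying complexes to promoters and enhancers. The 9 genes have little in common by function. ABHD4 is an alpha/beta hydrolase that removes acyl chains from N-acyl phospholipids on the way to N-acylethanolamines, and GPR146 is an orphan G protein-coupled receptor linked to plasma cholesterol. SDK1 (sidekick) is an immunoglobulin-superfamily adhesion protein of synapses, and SYNPO (synaptopodin) is an actin-associated protein of podocyte foot processes and dendritic spines. The Yippee-like proteins are small, highly conserved zinc-binding proteins, of which YPEL5 is a component of the CTLH ubiquitin ligase complex and YPEL3 is known for induction by p53 and growth arrest.

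The sequences under the peaks are shown first, because they divided the sites into classes. The 100 bp to each side of every peak centre were read on either strand for 4 motifs. These were the forkhead heptamer TGTTTAC, which reads as GTAAACA on the opposite strand, the degenerate forkhead core RYAAAYA (R being A or G and Y being C or T, so that every exact heptamer also counts as a core), the AP-1 heptamer TGACTCA, which reads as TGAGTCA on the opposite strand, and the E-box CACGTG. Sites with the exact forkhead heptamer in both replicates are given below with the heptamer in capitals, on the plus strand of hg38, in windows around the motif that were shortened where they ran into annotated untranslated exon. They are shown so that the promoter elements of ABHD4 and YPEL3 and the intronic or upstream elements of SYNPO, YPEL2 and SDK1 can be compared.
ABHD4 start site (chr14:22598242-22598319): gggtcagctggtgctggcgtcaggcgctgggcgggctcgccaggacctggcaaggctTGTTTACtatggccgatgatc
YPEL3 start site (chr16:30096195-30096224): ggcgcctggactTGTTTACaccgagcccag
SYNPO intron (chr5:150637616-150637736): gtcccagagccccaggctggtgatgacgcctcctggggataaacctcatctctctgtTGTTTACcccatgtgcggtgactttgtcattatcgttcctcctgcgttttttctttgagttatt
YPEL2 intron 1 (chr17:59331970-59332090): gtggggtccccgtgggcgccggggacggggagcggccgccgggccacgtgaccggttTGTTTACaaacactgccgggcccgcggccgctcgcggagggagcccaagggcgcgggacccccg
YPEL2 upstream (chr17:59297277-59297397): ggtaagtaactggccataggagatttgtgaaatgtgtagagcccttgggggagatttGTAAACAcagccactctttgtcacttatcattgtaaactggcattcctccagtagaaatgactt
SDK1 intron 4 (chr7:3695708-3695828): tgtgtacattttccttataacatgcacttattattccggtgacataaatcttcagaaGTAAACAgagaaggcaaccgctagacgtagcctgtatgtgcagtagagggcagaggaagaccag

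The strongest sites that lacked the exact heptamer are given next. Capitals mark the degenerate core TGTTTAT at the site downstream of ABHD4 and the E-box at GPR146, while the SDK1 promoter held no match to any of the searched motifs and is printed around its peak centre.
ABHD4 downstream (chr14:22614234-22614354): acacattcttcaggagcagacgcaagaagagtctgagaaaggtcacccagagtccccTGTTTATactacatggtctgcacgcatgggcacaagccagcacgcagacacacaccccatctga
GPR146 start site (chr7:1044492-1044575): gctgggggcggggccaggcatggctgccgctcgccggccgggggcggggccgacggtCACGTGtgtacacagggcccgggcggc
SDK1 promoter (chr7:3301027-3301147): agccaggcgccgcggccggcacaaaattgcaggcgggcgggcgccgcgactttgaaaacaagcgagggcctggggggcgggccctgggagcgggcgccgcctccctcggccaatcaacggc

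The last set shown, with the AP-1 heptamer in capitals and no forkhead heptamer, belonged to peaks of YPEL4, YPEL5 and SDK1. The SDK1 site also held the degenerate core TGTTTAT, left in small letters. The peaks with the AP-1 heptamer were weaker than those of the preceding set, although not than every peak with the forkhead heptamer. A further site found in both lists, downstream of YPEL5, held no match to any of the searched motifs and is not printed.
YPEL4 start site (chr11:57649915-57650009): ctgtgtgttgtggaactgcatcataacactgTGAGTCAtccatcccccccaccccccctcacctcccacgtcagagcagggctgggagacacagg
YPEL5 promoter (chr2:30146505-30146625): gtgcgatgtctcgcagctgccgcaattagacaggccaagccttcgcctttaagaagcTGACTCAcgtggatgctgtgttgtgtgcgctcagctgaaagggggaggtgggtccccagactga
YPEL5 upstream (chr2:30127699-30127819): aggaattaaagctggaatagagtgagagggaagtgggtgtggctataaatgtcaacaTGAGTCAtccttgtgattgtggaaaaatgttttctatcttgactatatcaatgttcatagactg
SDK1 upstream (chr7:3244476-3244596): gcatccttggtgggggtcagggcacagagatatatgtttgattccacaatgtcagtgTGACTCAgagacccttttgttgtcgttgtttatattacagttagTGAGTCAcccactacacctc

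FOXK2 peaks were tall at 6 of the 9 genes, lower at YPEL5 and weak at YPEL4 and YPEL1. The strongest peak of GPR146 had a score of 35.7 (95% interval 30.8 to 41.2) and rank 53 in replicate 1, and 65.9 (59.9 to 72.3) and rank 65 in replicate 2. YPEL3 followed with 33.2 (28.5 to 38.5) at rank 68 and 55.6 (50.1 to 61.5) at rank 110. SDK1 had 29.6 (25.2 to 34.6) at rank 89 and 55.8 (50.3 to 61.7) at rank 108. These 3 genes and ABHD4 each lay above the 99th percentile of both lists. ABHD4 reached 29.2 (24.8 to 34.2) at rank 96 and 51.3 (46.0 to 57.0) at rank 141, although from different sites in the 2 lists. SYNPO reached 25.1 (21.0 to 29.7) at rank 148 and 50.4 (45.2 to 56.1) at rank 144. YPEL2 reached 20 (16.4 to 24.2) at rank 273 and 47.7 (42.6 to 53.2) at rank 164. From GPR146 to YPEL2, the intervals of neighbours in this order overlapped in both replicates, so the counts did not resolve adjacent places in the order, whereas the intervals of GPR146 and YPEL2 at its ends did not overlap in either list.

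The other Yippee-like genes lay lower than YPEL3 and YPEL2. YPEL5 had a score of 12.6 (9.76 to 16; rank 974) in replicate 1 and 22.2 (18.8 to 26.1; rank 1183) in replicate 2, with intervals below those of YPEL2 in both. YPEL4 had 5.28 (3.51 to 7.63), under the list median, and 9.96 (7.72 to 12.6), above it, at percentiles 36.9 and 70.3. YPEL1 had no peak in replicate 1 and 1 peak of 4.46 (3.01 to 6.37) in replicate 2, at percentile 12.6. The peaks of YPEL4 and YPEL1 were thus not among the tall ones of either list, and that of YPEL5, at percentiles 91.9 and 95.6, lay between.

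**Figure D1:**
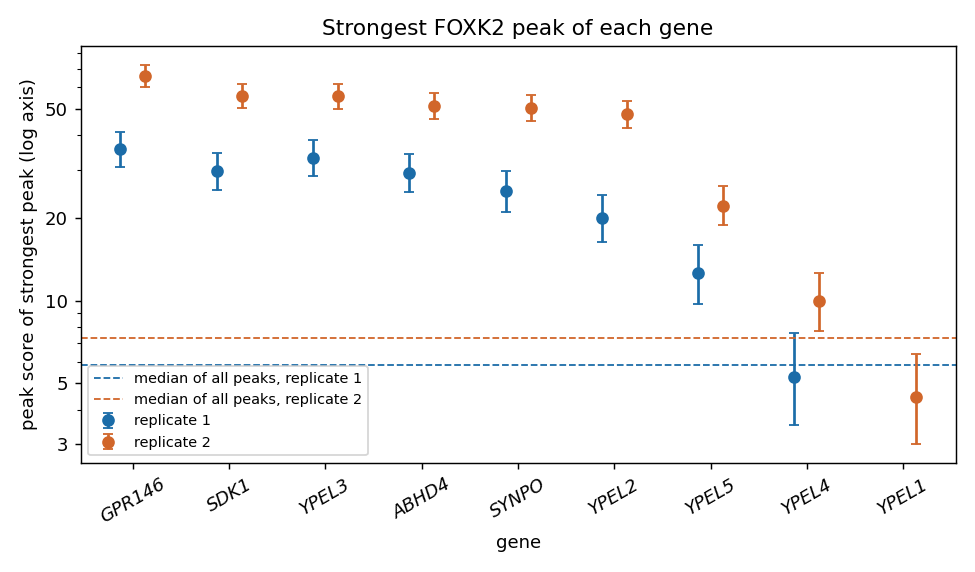
Peak score of the strongest FOXK2 peak of each gene on a log axis, with replicate 1 in blue, replicate 2 in orange, 95% Poisson intervals as bars and the median of all peaks of each list as dashed lines. From GPR146 to YPEL2 the points lie at 20 to 35.7 in replicate 1 and 47.7 to 65.9 in replicate 2, while YPEL4 and YPEL1 lie near or under the medians and YPEL1 has no replicate 1 point.

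Against all 20018 GENCODE protein-coding genes, 8 of the 9 genes had a peak in both replicates where 28.0% of all genes did. The same 8 genes had peaks that overlapped between the replicates, against 25.0% of all genes. A peak of the deposited promoter class in both replicates was present at 6 genes (ABHD4, GPR146, SDK1, YPEL3, YPEL4 and YPEL5), against 9.07%. A strongest peak at or above the 95th percentile in both lists was present at 6 genes (ABHD4, GPR146, SDK1, SYNPO, YPEL2 and YPEL3), against 2.26%. Because the genes were picked on these peaks, the shares over all genes are given only as a scale.

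ABHD4 carried 2 peaks of nearly equal height in each list. One lay at the start of the gene (chr14:22598290-22612963, plus strand in hg38), with its centre 20 bp upstream of the canonical TSS in replicate 1 and 4 bp inside exon 1, in untranslated sequence, in replicate 2. The other lay past the 3′ end of the gene, 1329 bp beyond it in replicate 1 and 1333 bp in replicate 2. Their scores were 28.7 and 29.2 in replicate 1 and 51.3 and 47.1 in replicate 2, so the start site was not the taller of the pair in both lists. In replicate 2 the strongest peak held 52.1% of the summed score of the gene, and in replicate 1 it held 50.4%. The start site held the exact heptamer 22 bp from the peak centre in replicate 1 and 2 bp in replicate 2, whereas the downstream site held the core TGTTTAT 2 bp from the centre in both.

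GPR146 (chr7:1044546-1059261, plus strand) had its tall peak directly over the first exon, with centres 4 and 13 bp past the canonical TSS, inside the body of the overlapping gene C7orf50. No forkhead core, exact or degenerate, lay within 100 bp of either centre, and the E-box printed above was 2 bp and 7 bp from them. The window was among the richest in G and C, at 84.6% and 84.1%, where the median window of all peaks held 47.3% and 46.3%. Replicate 2 alone had a further peak in intron 1 of GPR146, 11775 bp past the canonical start and at -336 bp from the start of another transcript. Its score was 7.29, equal to the list median, and it held an E-box 72 bp from its centre. The tall site thus stood without the intronic one in replicate 1.

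SDK1 (chr7:3301252-4269000, plus strand), a gene of 968 kb with 45 exons in its canonical transcript, had the most peaks, 4 in replicate 1 and 10 in replicate 2. The promoter peak stood far above the others, with scores of 29.6 and 55.8 centred 164 and 165 bp upstream of the canonical TSS, inside the antisense gene SDK1-AS1. It held no match to any motif searched, and its windows were 81.1% G and C in both replicates. A second shared peak lay 56708 and 56721 bp upstream of the gene in intergenic sequence, with scores of 8.49 and 15.2 and a pair of AP-1 heptamers. The degenerate core TGTTTAT lay 18 and 31 bp from the centres of this upstream peak. The remaining shared peak lay in intron 4, with scores of 6.23 and 14.1 and the exact heptamer 15 and 2 bp from the centres.

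The other SDK1 peaks were found in a single list. Replicate 1 had 1 such peak, in intron 1, with a score of 4.90 and the heptamer 37 bp from its centre. Replicate 2 had 7, spread over introns 1 to 35 with scores from 5.80 to 13.8, and 4 of them held the heptamer. One of those 4 lay in a MER4CL34 long terminal repeat and also held an AP-1 heptamer. Counted per length, the SDK1 body held 0.207 peaks per 100 kb in replicate 1 and 0.827 in replicate 2, against 0.404 and 0.883 over all named chromosomes, so the number of peaks in SDK1 was not above the genome-wide density of either list.

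**Figure D2:**
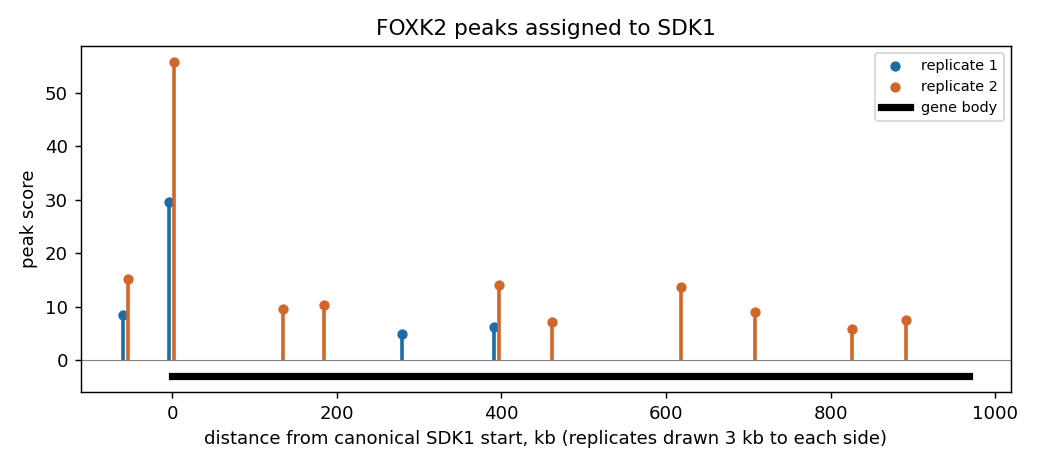
Peak score of every FOXK2 peak assigned to SDK1 against its distance from the canonical start in kb, with replicate 1 in blue, replicate 2 in orange, each drawn 3 kb to its side, and the gene body as a black bar. The promoter peaks of 29.6 and 55.8 stand above all others, of which the intronic ones in replicate 2 reach at most 14.1.

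SYNPO (chr5:150601080-150659207, plus strand) had a single peak in each list at the same place, 2988 bp upstream of the canonical TSS in replicate 1 and 2976 bp in replicate 2. The site was classed as intronic because it lies within a longer transcript of the gene, so it was neither at the start of the canonical nor at that of the longer transcript. Its scores were 25.1 and 50.4, and the exact heptamer lay 4 and 8 bp from the centres. A degenerate core was present 64 and 52 bp away. SYNPO was therefore the only one of the 6 tall genes with no peak in the 398 bp around its canonical start.

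Among the Yippee-like genes, YPEL3 (chr16:30092314-30096915, minus strand) had 1 peak per list, centred 8 and 21 bp past the canonical TSS in the untranslated part of exon 1, with 1 exact heptamer 5 and 18 bp from the centre. YPEL2 (chr17:59331655-59401729, plus strand) had its tall peak in intron 1, 375 and 398 bp past the TSS and within a CpG island by the deposited annotation. The exact heptamer lay 0 and 23 bp from the YPEL2 centres, with a second core overlapping it and an E-box 13 and 36 bp from the centres. A second shared YPEL2 peak lay 34318 and 34266 bp upstream, with scores of 9.24 and 17.7 and its own exact heptamer. Another YPEL2 peak, found only in replicate 1, lay 20662 bp upstream in a MER20 transposon with a score of 4.53.

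YPEL5 (chr2:30146941-30160533, plus strand) had 3 shared sites of moderate height. Its promoter peak, 438 and 431 bp upstream of the canonical TSS, scored 11.3 and 17.8. The site 19274 and 19263 bp upstream, in an L1MD1 LINE element, scored 12.6 and 22.2 and was the strongest of the gene in both lists, with an interval that overlapped that of the promoter peak. The site 4665 and 4736 bp beyond the 3′ end scored 7.36 and 17.1. No YPEL5 site held an exact forkhead heptamer. The promoter held TGACTCA 4 and 11 bp from the centre, with an E-box whose first bases overlap the AP-1 heptamer, and the LINE site held TGAGTCA 26 and 15 bp away. A weak peak 9984 bp upstream, with a score of 6.54 and a degenerate core, was found only in replicate 2.

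YPEL4 (chr11:57645087-57649944, minus strand) had its weak peak over the start, 19 and 37 bp upstream of the canonical TSS, with TGAGTCA 18 and 0 bp from the centre and no forkhead core. The peak also lay inside the bodies of CLP1 and MIR130AHG. The promoter of CLP1, a subunit of the pre-mRNA cleavage complex, had a much taller peak within 50000 bp, with a score of 23.4 and rank 185 in replicate 1 and 52.5 and rank 126 in replicate 2. YPEL1 (chr22:21697536-21735794, minus strand) had its only peak 114 bp past the TSS in exon 1, with no match to any motif searched and 82.6% G and C.

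**Figure D3:**
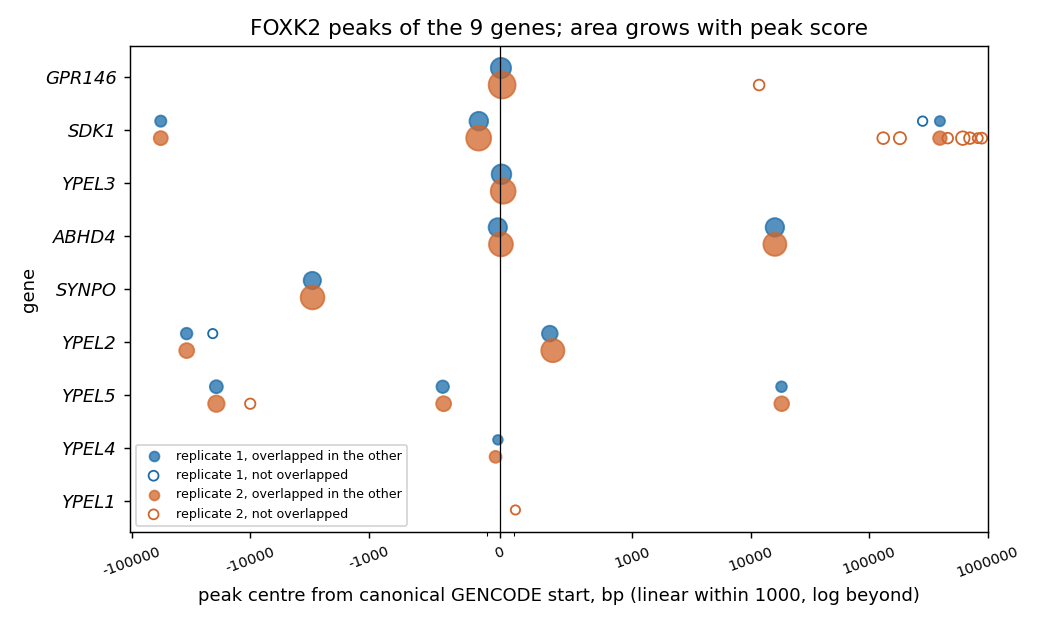
Distance in bp of each FOXK2 peak centre from the canonical GENCODE start of its gene, on an axis that is linear near the start and logarithmic farther out, with replicate 1 in blue, replicate 2 in orange, open circles for peaks found in a single list and circle area growing with peak score. The largest circles lie within 398 bp of the start at 5 genes and 2976 to 2988 bp upstream at SYNPO, and ABHD4 has a further pair about as large downstream.

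Most replicate 1 peaks of these genes were found again in replicate 2. Of the 16 replicate 1 peaks, 14 (87.5%, Wilson 95% interval 64.0% to 96.5%) shared 1 bp or more with a peak of replicate 2, against 74.9% of all peaks of that list. Of the 24 replicate 2 peaks, 14 (58.3%, 38.8% to 75.5%) overlapped a replicate 1 peak, against 34.2%. Since the genes were picked with these peaks known, the shares over all peaks are only a scale here too. Since 7 of the 10 peaks found only in replicate 2 were assigned to SDK1, the other genes together had 3, namely the intronic GPR146 peak, the upstream YPEL5 peak and the YPEL1 peak. The 10 unshared replicate 2 peaks scored from 4.46 to 13.8.

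The 14 shared sites lay at nearly the same positions in both lists. Their centres lay 1 to 71 bp apart, with a median of 13 bp. The score ratio of replicate 2 to replicate 1 was 1.87 at the median and ran from 1.58 at the YPEL5 promoter to 2.39 at YPEL2 intron 1. Over all 9343 overlapping pairs the median ratio was 1.73, with a 5th percentile of 1.12 and a 95th of 2.50, and all 14 pairs lay within that range. All 14 sites had a higher percentile in the longer list of replicate 2, which held more weak peaks, so percentiles were not compared between the lists. The YPEL2 intron 1 pair had a log2 ratio of 1.25 with a counting SE of 0.16, and 92.2% of all pairs had a lower ratio. Focus ratios, the fraction of tags on the expected side of a peak centre, were above the list medians of 0.758 and 0.755 in both replicates at the tall sites of GPR146 (0.854 and 0.861), YPEL3 (0.90 and 0.895), SDK1 (0.870 and 0.881), SYNPO (0.873 and 0.845) and ABHD4, and below them in both at YPEL2 intron 1 (0.694 and 0.732).

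**Figure D4:**
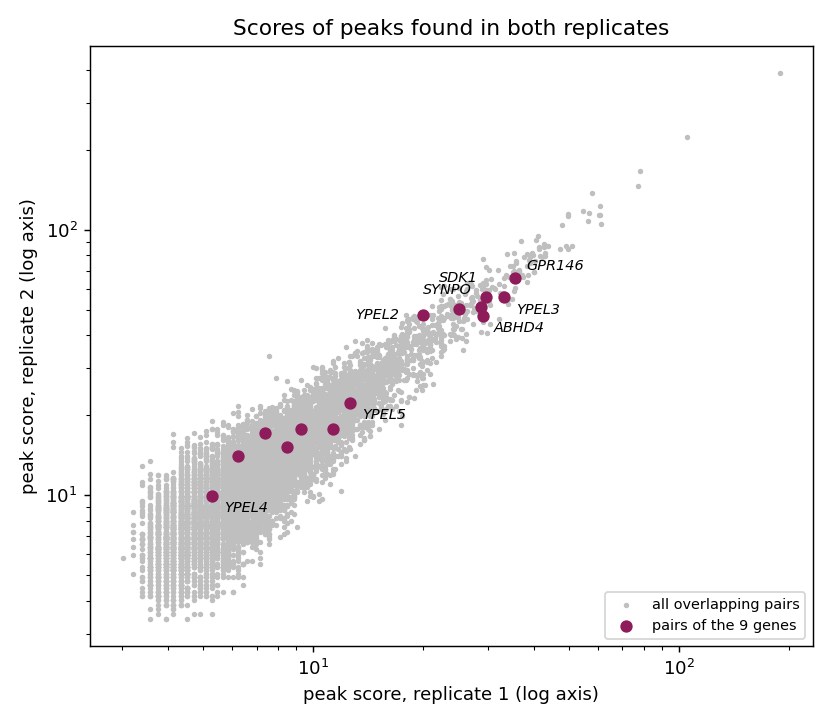
Peak score in replicate 2 against replicate 1, both on log axes, for all 9343 overlapping pairs (grey) and the 14 pairs of the 9 genes (purple), with the strongest pair of each gene named. The named tall sites lie together at 20 to 35.7 and 47.7 to 65.9, YPEL5 and YPEL4 lie lower, and all purple points follow the grey band.

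The exact forkhead heptamer was present at 7 of the 16 peaks of replicate 1 (43.8%, Wilson 95% interval 23.1% to 66.8%), against 30.5% of all peaks of that list. In replicate 2 it was present at 10 of 24 (41.7%, 24.5% to 61.2%), against 28.2%. SDK1 alone had 10 of these 24 peaks, several of them with the heptamer. Sites that share a gene may not be independent, which the intervals do not allow for. Over peaks at or above the 95th percentile the share was 57.6% of 602 in replicate 1 and 50.1% of 1353 in replicate 2, so the shares of the 9 genes lay between those of all peaks and of tall peaks, and with so few peaks the intervals included both. The degenerate core was present at 10 of 16 (62.5%, 38.6% to 81.5%) and 15 of 24 (62.5%, 42.7% to 78.8%), against 57.9% and 56.9%. Where the exact heptamer was present it lay a median of 5 bp from the peak centre in replicate 1 (7 peaks, 0 to 37 bp) and 13.5 bp in replicate 2 (10 peaks, 2 to 52 bp), against medians of 20 and 18 bp over all peaks that held it.

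The AP-1 heptamer was present at 4 of 16 peaks (25.0%, 10.2% to 49.5%) and 5 of 24 (20.8%, 9.24% to 40.5%), against 16.4% and 16.6% of all peaks. Within 500 bp of the centres its share was 50% and 41.67%, so it moved with the window chosen. A longer window holds more matches to any motif. No share over all peaks was at hand for it, so these values cannot be set against 16.4% and 16.6%. The E-box was present at 3 of 16 (18.8%, 6.59% to 43.0%) and 4 of 24 (16.7%, 6.68% to 35.9%), against 6.02% and 5.21%. The E-box and AP-1 motifs were added after the sequences had been seen and the sites share genes, so these shares are a description. The E-box sites of the shared peaks were those of GPR146, YPEL2 and the YPEL5 promoter.

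The 14 shared sites were sorted by the motifs they held. In the replicate 2 windows, 6 held the forkhead heptamer and no AP-1 heptamer, with scores from 14.1 to 55.6. A further 4 held the AP-1 heptamer and no forkhead heptamer, with scores from 9.96 to 22.2. Among these, the site upstream of SDK1 also held the degenerate core TGTTTAT. None held both, and 4 held neither, with scores from 17.1 to 65.9. Over all 9342 shared replicate 2 peaks these classes took 29.2%, 12.2%, 5.75% and 52.8%. The tallest site, GPR146, and the SDK1 promoter were therefore both in the class without either heptamer. This was common among tall promoters: of all promoter peaks at or above the 95th percentile, 39.6% of 240 in replicate 1 and 47.2% of 475 in replicate 2 held not even the degenerate core, whereas the share over all tall peaks was 24.6% of 602 and 27.3% of 1353.

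**Figure D5:**
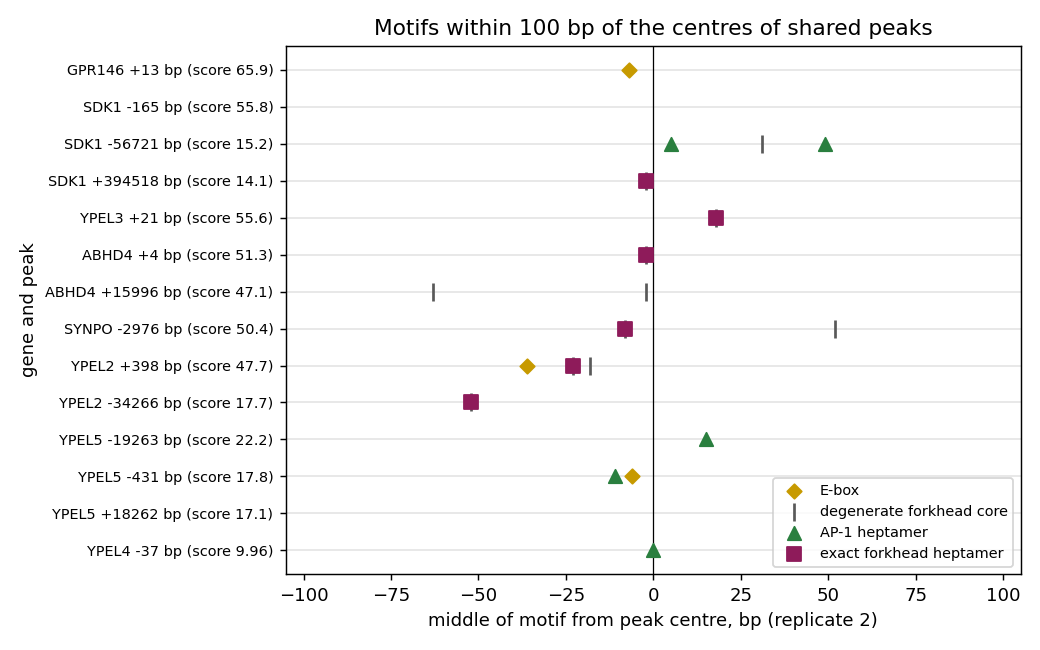
Position of each motif match relative to the replicate 2 peak centre in bp, for the 14 shared sites, each named by gene, distance of the peak from the canonical start and peak score. Exact forkhead heptamers (squares) lie within 52 bp of the centre at 6 sites, AP-1 heptamers (triangles) at 4 other sites, and GPR146 shows an E-box (diamond) and no forkhead mark.

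RefSeq promoter windows of 250 bases before and 50 after a start (GRCh38.p14) were at hand for 8 of the 9 genes, all but YPEL1. The only window of SDK1 was at a start inside the gene (position 4129685 of chromosome 7), away from the canonical start with the tall peak, and held no peak. Peaks of both lists overlapped a window at ABHD4, GPR146, YPEL3 and YPEL4. At ABHD4 the forkhead heptamer began 1 base before the RefSeq start, and at YPEL3 it began on the start itself, reading GTAAACA in the direction of transcription, so in both genes the heptamer covered the first transcribed base. Among all 35116 RefSeq promoters, 3.42% held the heptamer anywhere in the window and 32 (0.091%) had it across the start. Of those 32, with ABHD4 and YPEL3 among them, 17 (53.1%) overlapped a FOXK2 peak in both replicates, while 6.85% of all RefSeq promoters did. ABHD4 and YPEL3, picked with their peaks known, both count among the 17, so this share is a description and was not tested. The second RefSeq promoter of GPR146 held GTAAACA beginning at position -162 relative to its start, and no peak of either list overlapped it. Of the other motifs, the AP-1 heptamer was in the windows of YPEL4 and of the canonical SYNPO start and the E-box in that of GPR146, against 4.95% and 7.26% of all promoters.

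Genes related to the 9 by family or pathway were counted in the same way, beside the 28.0% of all protein-coding genes with a peak in both replicates. Of 10 CTLH ligase genes, the complex that contains YPEL5, 6 had a peak in both replicates. A promoter peak in both was present at 4 of the 10, against 9.07% of all protein-coding genes. The highest of the CTLH genes was RMND5A, a RING subunit of the complex, with promoter scores of 9.62 and 20.5. MKLN1, RMND5B, MAEA and GID4 followed. Of 20 other ABHD genes, 4 had a peak in both replicates (ABHD3, ABHD2, ABHD18 and ABHD17A), with scores from 3.96 to 6.98 in replicate 1. Of 8 enzymes that make or break N-acylethanolamines, GDPD1 alone had peaks in both, with scores of 7.73 and 13.5. SDK2, the paralog of SDK1, had no peak in either list, and neither SYNPO2 nor SYNPO2L had a peak in both. No gene of these lists reached the 95th percentile in both replicates, where 2.26% of all genes did, so over lists of this length a count of 0 is not set apart from that share.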

How the data were processed

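FOXK2 ChIP-seq of OVCAR5 cells was read from the deposited peak lists of 2 replicates. Per the study's methods and the submitters' processing notes, the authors mapped single-end reads to hg38 with Bowtie2 2.2.6 and called and annotated peaks in each replicate with HOMER 4.10. The study also computed enrichment statistics per peak with DESeq2, which were not used here. The deposited peak score is the authors' tag count scaled to each library, the deposited focus ratio is a fraction of tags, and the distance to the TSS is in bp. Scores were used as deposited and ranked within a list, and score ratios between the lists were read only against those of all overlapping pairs. The default scaling to 10000000 tags, taken here to convert scores to tags, implies about 53.0 M and 67.2 M tags in replicates 1 and 2.

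Peaks were assigned to genes by the deposited gene name. Positions were read against GENCODE 44, and sequences from hg38, the build of the lists (0 peaks lay outside it). Shares are given with 95% Wilson intervals. Steps that count overlaps, tags and motifs recovered the known answers when tested on simulated data. All 9 genes are named; of each related list, up to 5 genes with a peak in both replicates and the highest mean percentile are named. The genes and lists were chosen with earlier results of these data known, and the E-box and AP-1 motifs after seeing the sequences. Alternatives were higher-scoring parts of the lists, lists of equal length, limits on distance, stricter overlap, gene assignment, motif windows, the degenerate core and single replicates. Python 3.11.15 was used with numpy 2.4.6, pandas 2.3.3, scipy 1.17.1, pysam 0.24.0 and matplotlib 3.10.9.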

Additional observations from a re-analysis of the deposited data

How the results depend on the processing

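Limiting peaks to 10000 bp from the assigned TSS left 8 peaks in replicate 1 in place of 16, 12 in replicate 2 in place of 24, and 8 overlapped replicate 1 peaks in place of 14, with 8 genes still having a peak in both. Replacing the exact heptamer by the degenerate core raised its share of replicate 2 peaks from 41.7% to 62.5%. A count was taken as moved when it changed by over 1.5 times, a share when it left its Wilson interval and a percentile when it changed by over 1 SD between replicates. By this rule these 4 of 45 alternatives moved a count or forkhead share. The 45 include peak counts of 1 list without the other, which could not change. Smaller changes included the core share of 62.5% against 43.8% in replicate 1, 18 replicate 2 peaks in lists of equal length and 5 promoter genes without the peaks under the list medians. Of 36 alternatives for single genes and the AP-1 motif, 3 moved: windows of 500 bp gave AP-1 shares of 50% and 41.67%, and the mean percentile of YPEL5 fell from 93.74 to 90.45 when peaks beyond 10000 bp were left out. The AP-1 shares in 500 bp windows have no share over all peaks beside them. With 2 replicates, leaving one out cannot pass 1 SD: YPEL4 went from 53.59 to 70.33 or 36.86. Taking a single replicate gave 8 to 9 genes with a peak, 6 with a promoter peak from either, and 16 and 24 peaks. The gene count was 7 where peaks under the list medians were left out. No paired analysis was possible because the lists hold a single condition and the input libraries were not analysed here. With 2 libraries, the error on a score covers counting and not variation between cultures, and the smallest peaks, of 16 and 21 tags, set what could be seen at YPEL1.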

Other observations

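Other genes had peaks of almost the same standing as these in both lists. Taking the gene whose strongest peaks lay nearest in the plane of the 2 score percentiles, among genes with the same annotation class in each replicate, GPR146 was closest to RAD21, a cohesin subunit, with scores of 36.0 and 68.1 at its promoter. YPEL3 was closest to JUNB, a subunit of AP-1, with 33.0 and 57.6. SDK1 was closest to SLC25A45 with 29.2 and 55, SYNPO to CLPX, the ATPase subunit of the mitochondrial ClpXP protease, with 25.5 and 49.7, and YPEL2 to PRTG with 20.8 and 47.6. YPEL5 was closest to LINC01271 with 12.6 and 23.1, and YPEL4 to CNOT3, which had the same scores of 5.28 and 9.96. ABHD4, whose strongest peaks were of different classes in the 2 lists, had only 82 candidates under this rule, against 1779 or more for the others, and the nearest of them, CEP120, lay 10.0 percentile points away.

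Peaks assigned to other genes also lay within 50000 bp. The promoter of RBM22, near SYNPO, scored 11.3 and 27.5, and that of ZDHHC5, near YPEL4, 9.05 and 18.4. Within YPEL2, replicate 2 had a peak assigned to the microRNA gene MIR4729, with a score of 11.2 and an exact heptamer within 100 bp of its centre. Near ABHD4, replicate 2 had a promoter peak at DAD1 with a score of 11.6 and replicate 1 had none there.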
